A study of Homo sapiens with 16 samples.

Results

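The Schlafen genes SLFN5, SLFN11, SLFN12 and SLFN13 were followed in CEM, CUTL1, DND41 and Jurkat. These established human lines of malignant T cells were grown in serum-containing RPMI. Each line was exposed for 15 h to 1 uM PD-0332991 (palbociclib), an inhibitor of the cell cycle kinases CDK4 and CDK6, or to the vehicle DMSO, and RNA was measured on 2 Affymetrix U133 Plus 2.0 arrays per line and treatment, 16 arrays in all. The members were all probe sets annotated with exactly 1 gene symbol equal to one of the 4 names. They came to 10 probe sets out of 41097 with 1 symbol, or 4 genes out of 19775. SLFN5 had 6 probe sets, SLFN13 had 2, and SLFN11 and SLFN12 had 1 each. The genes were selected on their levels in DMSO and their changes with PD-0332991 in these arrays, so those values are given as a description, with no test. SLFN12L, SLFN14 and their probe sets were not analysed here.

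Schlafen proteins share an N-terminal core, which in several members can cut RNA, and the longer members carry in addition a helicase-like C-terminal part, which SLFN12 lacks. Human Schlafen genes are induced by type I interferon in several cell types, and in mice Slfn2 is needed to keep T cells quiescent. SLFN11 is recruited to stressed replication forks through the single-strand DNA binding protein RPA, blocks them, and sensitises cancer cells to drugs that damage DNA.

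The 4 genes lie side by side on chromosome 17 in the order SLFN5, SLFN11, SLFN12 and SLFN13, followed by SLFN12L and SLFN14 (RefSeq genes of GRCh38.p14). RefSeq promoter sequences, 250 bases before to 50 after the annotated start, were matched for 2 of the 4 genes. No promoter was matched for SLFN5 or SLFN13, so the 2 shown are those of SLFN11 and SLFN12. These neighbours had changes with PD-0332991 of opposite signs in CEM, the line in which SLFN12 was brightest. The SLFN11 promoter lies at chr17:35373572-35373871 on the minus strand and the SLFN12 promoter at chr17:35433125-35433424 on the minus strand, both written 5′ to 3′ in GRCh38.p14. Capitals mark a match to one of 4 motifs searched on both strands.
SLFN11: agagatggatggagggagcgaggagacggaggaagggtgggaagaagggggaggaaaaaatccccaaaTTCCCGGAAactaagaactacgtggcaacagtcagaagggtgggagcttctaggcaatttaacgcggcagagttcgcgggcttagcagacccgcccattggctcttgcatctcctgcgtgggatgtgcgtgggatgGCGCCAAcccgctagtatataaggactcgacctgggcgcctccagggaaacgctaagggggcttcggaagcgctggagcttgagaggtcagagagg
SLFN12: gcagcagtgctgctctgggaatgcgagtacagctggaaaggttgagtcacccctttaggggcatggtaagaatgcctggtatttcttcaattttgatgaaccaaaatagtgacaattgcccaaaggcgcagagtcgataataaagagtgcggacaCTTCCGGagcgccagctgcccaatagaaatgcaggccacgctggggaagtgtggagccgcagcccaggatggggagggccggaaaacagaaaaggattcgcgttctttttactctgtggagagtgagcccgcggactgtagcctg
In SLFN11 the capitals are a gamma-activated site (TTCNNNGAA) and, further along, an E2F-type motif, here the reverse complement of TTGGCGC. In SLFN12 they are an ETS-type motif (CCGGAAG, on the reverse strand). The E2F-type search took the spelling TTGCCGC as a match too. It likewise took the spelling TTCGCGC as a match, and the last spelling that it took was TTCCCGC. Neither promoter held the interferon-stimulated response element, searched as GAAA and again GAAA with any 2 bases between them. Among 35116 promoters of the same length, the shares with a match were 7.66% for the gamma-activated site, 13.0% for the E2F-type motif, 10.3% for the ETS-type motif and 3.57% for the interferon element. Relative to the annotated start, the matches began at -182 and -46 in SLFN11 and at -95 in SLFN12. These matches describe the letters in the windows and were not tested as binding sites.

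The values were array intensities, and a level below 29.5, the median of all deposited values (4.88 on the log2 scale), is called dim here because changes at that level are not measured reliably. Array medians ran from 28.5 to 31.2, replicate arrays correlated at r of 0.993 to 0.998 across 13483 genes, and precision is limited by having 2 arrays a group. T-cell markers were bright in all groups, with CD3D at 13.86 to 14.28 and LCK at 11.67 to 13.23 on the log2 scale. All 4 Schlafen genes are given below, but 3 of them passed the brightness filter for the gene fit. SLFN12 passed it because of its levels in CEM and CUTL1, and SLFN13 was set aside as dim. Levels of different probe sets are not compared.

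SLFN5, which is mostly nuclear and has been described as a repressor of interferon genes, was higher with PD-0332991 in every line. Its probe set 226725_at read 871 and 940.3 with PD-0332991 in CEM, against 378 and 391 with DMSO. In CUTL1 it read 1338 and 1393 with PD-0332991, against 736 and 717 with DMSO. In all of these arrays the gene was far above the dim level, and the treated pair lay above the DMSO pair in each line. In DND41 the readings were 163 and 211 with PD-0332991, against 85.0 and 58.4 with DMSO. In Jurkat they were 492 and 490.4 with PD-0332991, against 168 and 174 with DMSO. The ratio of PD-0332991 over DMSO was thus 2.87-fold in Jurkat, 2.63-fold in DND41, 2.35-fold in CEM and 1.88-fold in CUTL1. As log2 differences these were 1.52, 1.39, 1.23 and 0.91, each with an SE of 0.15 from the fit (n = 2 arrays per group), and their average was 1.26 (SE 0.08). Each reading is an average over a culture, so a different share of cells with the RNA and a different amount of RNA per cell cannot be told apart.

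The other SLFN5 probe sets gave the same sign with different sizes. The brightest, 238430_x_at, read 1379.6 and 1140.5 with PD-0332991 in CEM, against 491 and 529 with DMSO, a log2 difference of 1.30 (SE 0.16). In CUTL1 it read 1497 and 1273 with PD-0332991, against 1026 and 978 with DMSO, and its difference was smaller there, at 0.46. The differences of this probe set were 1.13 in DND41 and 0.85 in Jurkat, and the average over the lines was 0.93 (SE 0.08). A suffix _x_at marks a probe set with probes that may match other transcripts, and 2 of the 6 SLFN5 probe sets bear it. Over all 6, the change ran from 0.84 to 1.30 in CEM, from 0.31 to 1.37 in CUTL1, from 0.13 to 1.39 in DND41 and from 0.85 to 1.52 in Jurkat. The medians of the 6 were 1.16, 0.70, 0.72 and 1.25. CUTL1 and DND41 were therefore the lines in which the probe sets of this gene disagreed most in size. In CUTL1 the smallest value came from 230383_x_at (0.31) and the largest from 1557078_at (1.37). In DND41 the smallest came from 243999_at (0.13), the only probe set and line in which the SLFN5 arrays of the treatments overlapped, with 27.7 and 47.0 for PD-0332991 and 39.2 and 27.5 for DMSO. The treated arrays lay above the DMSO arrays in all 4 lines for 5 of the 6 probe sets. The same was true of 10.7% of the 13483 genes tested. In single lines both treated arrays were above both DMSO arrays for 35.3% of genes in CEM, 37.5% in CUTL1, 31.7% in DND41 and 38.6% in Jurkat. Since the Schlafen genes were selected on their changes, nothing is read from these shares. The 15 pairs of SLFN5 probe sets correlated at r of 0.892 to 0.987 over the 8 group means, which share their arrays.

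**Figure D1:**
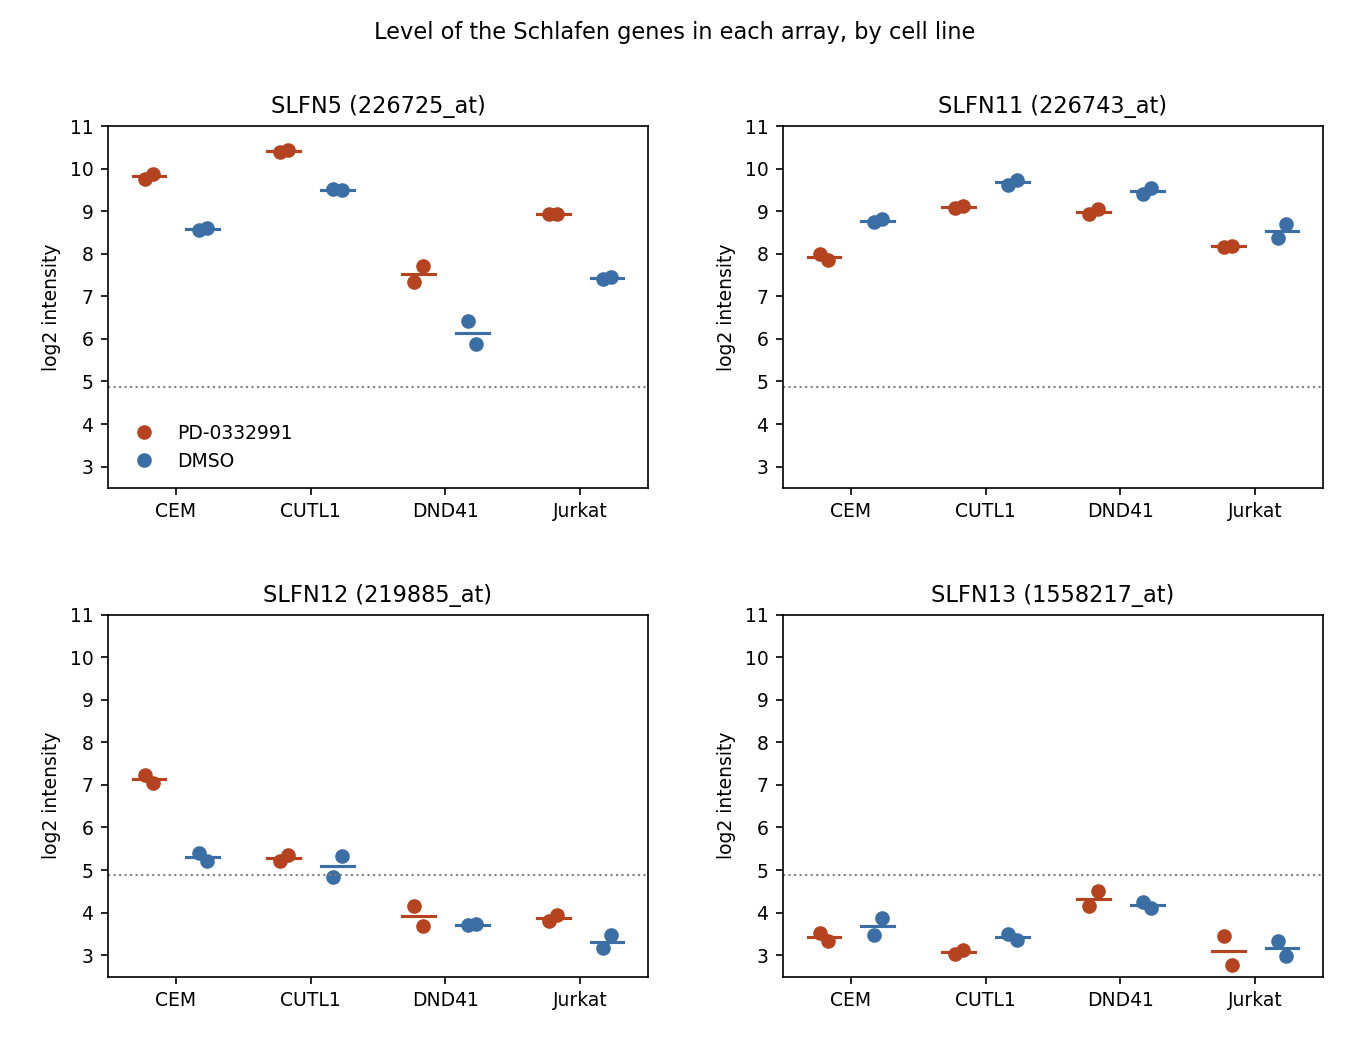
Log2 intensity of 1 probe set for each of SLFN5, SLFN11, SLFN12 and SLFN13 in the 16 arrays, by line, with PD-0332991 left of DMSO. Points are arrays (n = 2 per group), short lines are group means and the dotted line is the dim level of 4.88. SLFN5 is higher and SLFN11 lower with PD-0332991 in every line, SLFN12 is above its DMSO level by a wide margin in CEM, and SLFN13 is below the dotted line in every array.

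In DMSO the mean level of SLFN5 was highest in CUTL1, then in CEM, then in Jurkat, and lowest in DND41 for the 5 probe sets that were above the dim level in every group. The same order was found with PD-0332991. For 1553055_a_at, which was dim in DND41 under both treatments and in Jurkat with DMSO, CUTL1 was above CEM and the last places in DMSO have no order. By 226725_at the DMSO level in CUTL1 was 9.50 on the log2 scale (SD 0.026, n = 2), against 6.14 in DND41 (SD 0.38, n = 2), a ratio of 10.3-fold. CEM stood at 8.59 and Jurkat at 7.42. Of the 5 probe sets above the dim level in every group, 226725_at gave the largest ratio of CUTL1 over DND41. The smallest was 4.83-fold by 243999_at, and the brightest probe set, 238430_x_at, gave 7.80-fold. Neighbours in this order did not overlap for 226725_at. CEM and Jurkat overlapped in DMSO for 1557078_at, with 84.3 and 54.8 in CEM and 52.0 and 55.2 in Jurkat. By 226725_at the DMSO difference between CUTL1 and DND41, 3.37, was larger than the change with PD-0332991 in any line, but neighbours in the order differed by 0.92 to 1.28, within the range of those changes. DND41 with PD-0332991 (7.53 by 226725_at) stood close to Jurkat with DMSO (7.42).

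SLFN11, the member that blocks stressed replication forks, was lower with PD-0332991 in every line. Its single probe set, 226743_at, read 256 and 231 with PD-0332991 in CEM, against 429 and 447 with DMSO. In CUTL1 the readings were 535 and 557 with PD-0332991, against 786 and 856 with DMSO. The gene stayed bright in all of these arrays, with the treated pair below the DMSO pair in each line. In DND41 it read 486 and 532 with PD-0332991, against 675 and 749 with DMSO. In Jurkat it read 288 and 290.4 with PD-0332991, against 329 and 418 with DMSO, and there the DMSO arrays differed more from each other than the treated ones did. The arrays of the treatments did not overlap in any of the 4 lines. Both treated arrays were below both DMSO arrays in all 4 lines for 10.7% of the genes tested, and in single lines for 29.4% in CEM, 25.3% in CUTL1, 32.8% in DND41 and 25.2% in Jurkat, from which again nothing is read. The log2 differences were -0.85 in CEM, -0.59 in CUTL1, -0.48 in DND41 and -0.36 in Jurkat, each with an SE of 0.12 from the fit, and their average was -0.57 (SE 0.06). DMSO was thus 1.80-fold above PD-0332991 in CEM and 1.28-fold above it in Jurkat. The difference between the changes in CEM and Jurkat was -0.49 with an SE of 0.16. Without the first DMSO array the change in Jurkat was -0.53, and without the second it was -0.19.

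The SLFN11 level in DMSO was highest in CUTL1, at 9.68 on the log2 scale (SD 0.087, n = 2). DND41 followed at 9.47 (SD 0.11), CEM at 8.78 (SD 0.041) and Jurkat at 8.53 (SD 0.24). The arrays of neighbouring lines in this order did not overlap, but the steps from CUTL1 to DND41 (0.21) and from CEM to Jurkat (0.24) were of the size of the spread between replicate arrays. With PD-0332991 the last places changed, with CEM at 7.92 and Jurkat at 8.18. DND41, the line with the lowest SLFN5, was thus among the lines with the highest SLFN11. Over the 8 group means the correlation of SLFN11 with SLFN5 was -0.30, a description of 8 points that share lines and treatment.

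SLFN12, a ribonuclease that becomes active when it binds the phosphodiesterase PDE3A, had the largest change of the family, and it had it in CEM. Its probe set 219885_at read 151 and 132.9 with PD-0332991 in CEM, against 42.0 and 36.9 with DMSO. The treated CEM arrays were the highest of the 16 for this gene, and the DMSO arrays of CEM were just above the dim level. In CUTL1 the readings were 37.2 and 41.0 with PD-0332991, against 28.8 and 40.2 with DMSO. In DND41 they were 17.7 and 12.8 with PD-0332991, against 13.0 and 13.2 with DMSO. In both of these lines the arrays of the treatments overlapped. In Jurkat the treated arrays, at 13.9 and 15.4, lay above the DMSO arrays, at 8.96 and 11.1. The 4 groups of DND41 and Jurkat were dim, so no change can be read there. The log2 difference was 1.85 in CEM (SE 0.18), or 3.60-fold, and 0.20 in CUTL1 (SE 0.18). The change in CEM exceeded that in CUTL1 by 1.65 (SE 0.25), although both lines had close levels in DMSO, 5.30 in CEM and 5.09 in CUTL1. PDE3A was itself dim in 3 of 8 groups, and PDE3A and PDE3B, the measured genes of the list of SLFN12 partners, had average changes of 0.02 and 0.02, with limma adjusted p of 0.780 and 0.849. In CEM they stood at -0.19 and -0.03.

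SLFN13, an endonuclease that cuts transfer and ribosomal RNA, was dim in all 8 groups by both of its probe sets. The readings of 1558217_at ran from 6.79 to 22.7 and those of 1553423_a_at from 6.82 to 16.96. The highest readings of both were in DND41. The probe sets did not give the same sign of change in CEM, CUTL1 or DND41. In DND41, for example, the log2 difference was 0.15 (SE 0.21) by 1558217_at and -0.51 (SE 0.13) by 1553423_a_at. No direction is given for this gene.

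**Figure D2:**
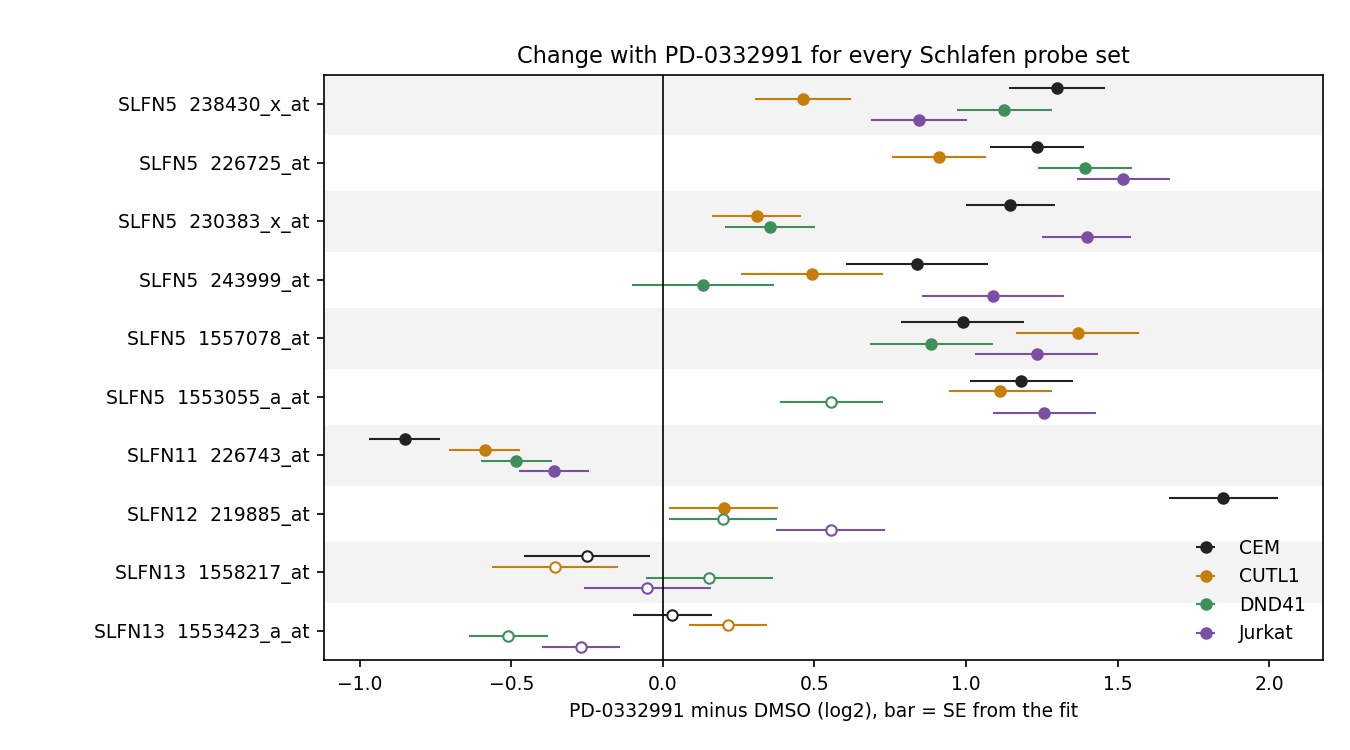
Log2 difference of PD-0332991 minus DMSO for each of the 10 Schlafen probe sets in each line, with the SE from the fit as bars (n = 2 arrays per group). Open points mark groups that were dim under both treatments. All 24 SLFN5 points lie above 0, all 4 SLFN11 points below 0, and the SLFN12 point of CEM, at 1.85, lies farthest to the right.

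The changes of the family were set beside those of the genes around the cluster. The neighbours on one side were CCT6B, ZNF830, LIG3, RFFL, RAD51D, FNDC8, NLE1 and UNC45B, and those on the other AP2B1, RASL10B, GAS2L2 and TAF15. FNDC8 and UNC45B were dim. Of the 10 neighbours tested, 2 rose and 3 fell in the average over the lines at a limma adjusted p under 0.05, while 26.7% of all 13483 genes rose and 20.0% fell. RAD51D, a recombination gene, fell by 0.60 (SE 0.05, adjusted p = 6.48e-07), with changes of -0.47 to -0.68 in single lines. RASL10B (-0.19) and TAF15, a RNA-binding protein of the FET family (-0.18), fell as well. AP2B1, a subunit of the clathrin adaptor, rose by 0.29 (SE 0.05), and CCT6B by 0.31 (SE 0.11). In single lines CCT6B was called in CEM alone (0.66), where it was dim with DMSO, and it stood at -0.20 in DND41. NLE1 (-0.11), GAS2L2 (-0.07), RFFL (0.10), the DNA ligase gene LIG3 (0.07) and ZNF830 (0.04) were not called. The median change of the 10 was -0.01, beside 0.04 over all genes tested. Signs thus differed between adjacent genes of the locus, with SLFN5 higher, SLFN11 lower and, in CEM, SLFN12 higher.

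**Figure D3:**
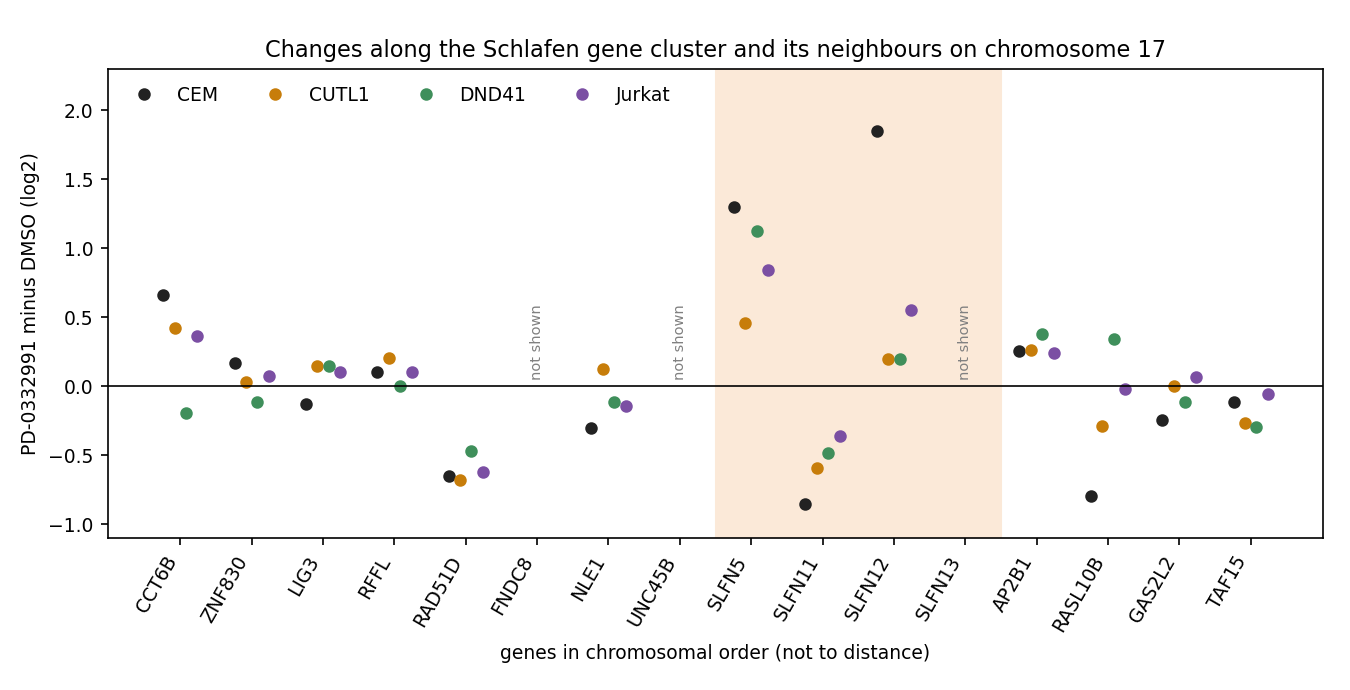
Log2 difference of PD-0332991 minus DMSO in each line for the Schlafen genes (shaded) and their neighbours, in the order in which they lie on chromosome 17. Genes that did not pass the brightness filter have no points. Between the tested neighbours NLE1 and AP2B1, the SLFN5 points are above 0 and the SLFN11 points below it. The SLFN12 point of CEM is at 1.85. The SLFN12 points of DND41 and Jurkat come from dim groups and that of CUTL1 from overlapping arrays, so no rise is read there.

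Schlafen genes are known interferon targets, so other genes of that response are given beside them. The interferon genes IFNA1, IFNB1 and IFNG were dim in all groups. Of 15 measured genes for receptors, kinases and transcription factors of the pathway, 7 rose and 2 fell in the average over the lines. Over all 13483 genes, 26.7% rose and 20.0% fell in that average. IRF9, a transcription factor of the interferon response, rose by 0.78 (SE 0.07, limma adjusted p = 2.68e-06), with 1.26 in CEM and 0.41 in CUTL1. The kinase gene JAK1 rose by 0.32 and the repressor gene IRF2 by 0.31, and the receptor gene IFNGR2 fell by 0.26.

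Of 56 measured interferon-stimulated genes, 39 rose and 7 fell in the average over the lines, and 10 did not pass the test. In the same average 26.7% of all 13483 genes rose and 20.0% fell. The median change of the 56 was 0.26, beside 0.04 over all genes. ISG20, an RNA exonuclease, rose by 0.97 (SE 0.06, limma adjusted p = 6.71e-08). IFIT2 (0.78), TRIM22 (0.90), MX2 (0.57), TRIM5 (0.69), IFIT1 (0.59) and SAMD9L (0.53) also rose, with TRIM22 and IFIT1 dim in both groups of CUTL1. Like SLFN11, some genes of this list went the other way. HERC5, the ligase that attaches ISG15 to proteins, fell by 1.43 (SE 0.06, adjusted p = 3.38e-09). PLSCR1 (-0.998), CMPK2 (-0.80), USP18 (-0.44), OAS3 (-0.39) and EIF2AK2 (-0.26) fell too. In single lines the numbers that rose and fell were 25 and 4 in CEM, 23 and 6 in CUTL1, 17 and 4 in DND41 and 29 and 4 in Jurkat. Over all genes the shares that rose and fell were 16.5% and 11.6% in CEM, 14.6% and 12.7% in CUTL1, 11.1% and 17.1% in DND41, and 15.6% and 11.4% in Jurkat. The DND41 split of all genes depended on scaling, with 1495 higher and 2305 lower as deposited. Centring each array at its median gave 899 higher and 2880 lower, quantile normalization 2156 and 1760, and cyclic loess 1917 and 1838. The medians of the interferon list were 0.28 in CEM, 0.24 in CUTL1, 0.14 in DND41 and 0.33 in Jurkat. By 226725_at the SLFN5 changes of 1.23, 0.91, 1.39 and 1.52 lay above these medians in every line. By 243999_at the SLFN5 change in DND41 was 0.134, just below the list median of 0.136. Since SLFN5 was selected on its changes, nothing is read from its place beside the list. RSAD2, an antiviral enzyme, passed the test in both directions, at 1.08 in CEM and -0.92 in CUTL1. With PD-0332991 its level in CUTL1 was just below the dim level.

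**Figure D4:**
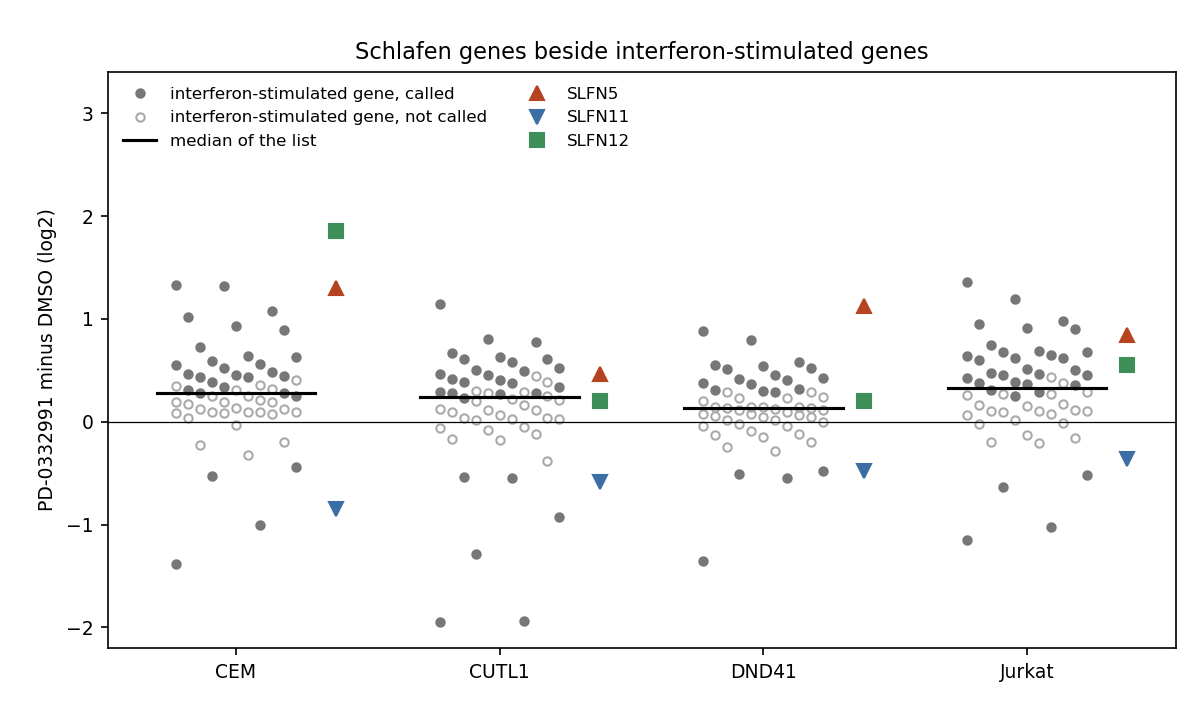
Log2 difference of PD-0332991 minus DMSO in each line for 56 interferon-stimulated genes (grey, filled where the limma adjusted p was under 0.05), with their median, and for SLFN5, SLFN11 and SLFN12 by their brightest probe set. SLFN5 is above the median of the list in every line and SLFN11 below 0, at -0.36 to -0.85. The Schlafen genes were selected on their changes, so nothing is read from these places.

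Some of the proteins with which SLFN11 acts at forks are products of cell cycle genes. Of 13 genes on a list of these partners, 8 fell and 2 rose, 3 did not pass the test, and the median change was -0.16. In the average over the lines, which the counts of this paragraph use, 26.7% of all genes tested rose and 20.0% fell. DTL, the receptor that sends the licensing factor CDT1 for degradation, fell by 3.09 (SE 0.04, limma adjusted p = 2.95e-13). CDT1 itself (-2.73), the checkpoint kinase gene CHEK1 (-2.17) and RPA3, a subunit of RPA (-0.67), fell as well. SLFN11, at -0.36 to -0.85, thus changed less than DTL did, at -2.42 to -3.87 in single lines. A list of chromatin and ETS genes linked to SLFN11 expression in other cancers held 11 measured genes, of which 7 fell and 2 rose. EZH2, the methyltransferase that silences SLFN11 in small cell lung cancer, fell by 1.22 (SE 0.06, adjusted p = 1.42e-08). Its partner EED (-0.85) and the DNA methylation genes UHRF1 (-1.60) and DNMT1 (-0.90) also fell. The genes that rose were DNMT3A (0.25) and the ETS gene FLI1 (0.29). FLI1 stood at 0.65 in CEM and at -0.32, not called, in DND41. ETS1 (0.18) was not called in the average. EZH2 and SLFN11 were both lower in all 4 lines, and a relation between them was not tested.

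Quiescence genes of T cells, listed because mouse Slfn2 acts in that state, rose in 11 of 17 cases and fell in 1. This and the later counts of this paragraph are for the average over the lines, in which 26.7% of all genes tested rose and 20.0% fell. TXNIP (0.69), BTG1 (0.69), the egress receptor gene S1PR1 (0.56) and TOB1 (0.46) rose, each at a limma adjusted p of at most 7.40e-06. Of 4 measured genes for other RNA nucleases 2 fell, RNASEH2A, a subunit of RNase H2 (-1.39), and DROSHA, the microRNA processing enzyme (-0.17), while DICER1 (-0.08) and ELAC2 (0.02) were not called. Markers of T cells rose in 9 of 10 cases, among them CD247 (0.47), CD28 (0.37), CD2 (0.37) and LCK (0.29), and their summed intensity was 30323 to 47518 with PD-0332991 and 26068 to 41102 with DMSO. Of the other cell types, 2 B cell, 1 myeloid, 3 NK and cytotoxic, 3 erythroid and megakaryocyte and 3 fibroblast and endothelial markers were bright enough to test. Of these CD79A (0.25), PRF1 (0.24), ALAS2 (0.25) and PECAM1 (0.35) rose and none fell, though ALAS2 was dim in 6 of 8 groups, while CD79B, CSF1R, NCAM1, NKG7, ITGA2B, HBB, COL1A1 and VWF were not called. Summed over the list, B cell markers read 261 to 2226 with PD-0332991 and 256 to 1558 with DMSO, myeloid markers 123 to 145 and 121 to 134, NK and cytotoxic markers 391 to 927 and 362 to 820, erythroid markers 121 to 163 and 114 to 153, and fibroblast and endothelial markers 329 to 2058 and 299 to 1615. The part of these markers in the Schlafen values was not tested. SLFNL1, a more distant relative on another chromosome, stood at 0.02 (SE 0.06, adjusted p = 0.864).

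Genes with the most similar profile were taken as those with the highest correlation over the 8 group means, 5 for each gene. For SLFN5 they were TMC8 (r = 0.991), MAPRE2 (0.980), the T cell receptor chain gene CD3E (0.975), SH3KBP1 (0.975) and IRGQ (0.974). For SLFN11 they were ITFG2 (0.975), PALS2 (0.967), TCEAL9 (0.966), the signalling gene MALT1 (0.953) and DTNBP1 (0.950). SLFN12 was closest to SLC14A1 (0.978), STAP2 (0.977), KDM5C (0.972), ZNF75A (0.970) and FBXW5 (0.969). None of the lists held another Schlafen gene. SLFN5 and SLFN12 correlated at 0.711 and SLFN11 and SLFN12 at -0.30. Since 4 of the 8 group means of SLFN12, those of DND41 and Jurkat, were dim, its correlations rest on levels that in part have no order. With 8 points from 16 arrays and 13483 genes to choose from, these are descriptions and carry no p.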

How the data were processed

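Per the labels' protocols, a Nugen Ovation kit amplified the RNA, and the cDNA carried biotin. Per the submitters' processing notes, the authors made the values with RMA. Its version was not given in the sources used here. As deposited, each value was an intensity on a linear scale, from 4.42 to 26097, and log2 was taken with no pseudocount or further scaling. Of 54675 probe sets, 41097 had 1 gene symbol, 1801 several and 11777 none. Each of 19775 genes was represented by its probe set with the highest mean, and 13483 were tested whose mean in at least 1 line reached 29.5. No genome build is given for the arrays, so RefSeq coordinates are for the promoter sequences alone.

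The mean of each group was fitted with limma 3.58.1 under R 4.3.3 (lmFit, eBayes, 8 residual degrees of freedom), with Benjamini-Hochberg adjustment over all genes tested. All tests were two-sided. SE values of Schlafen probe sets came from the same model over all 41097 probe sets. The code was tested on simulated data. Figures were drawn with Python 3.11.15 and matplotlib 3.10.9. Nothing in the labels says that replicates came from separate cultures. The p-values therefore rest on the spread between arrays alone, which may be technical. The alternatives were 3 other scalings, no brightness filter, other choices of probe set, a replicate block, an intensity trend and each array left out.

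The members, gene lists, motifs and tests were chosen with earlier results of these data known. Genes named were the members, the 5 most similar to each, all tested neighbours and the 4 smallest p in each list. The 3 largest rises and falls of interferon-stimulated genes in each line were named too. In the list of chromatin and ETS genes, ETS1 and the genes that rose were added.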

Additional observations from a re-analysis of the deposited data

Results flagged for a closer look

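The probe set 1553423_a_at of SLFN13 had both PD-0332991 arrays above both DMSO arrays in CUTL1 (0.22 on the log2 scale) and both below in DND41 (-0.51) and Jurkat (-0.27). The difference was not tested, all 8 groups were dim, and the other SLFN13 probe set gave the opposite sign in CUTL1 and DND41.

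The change with PD-0332991 differed between lines for several of the other genes named, by the limma F test on 3 differences between lines. The adjusted p was 0.00247 for RASL10B, the cluster neighbour, which was -0.80 in CEM and 0.34 in DND41. Among interferon-stimulated genes it was 0.000208 for CMPK2, 0.0022 for RSAD2, 0.0184 for PLSCR1, 0.0243 for HERC5, 0.0338 for OAS3, 0.0443 for TRIM22 and 0.0492 for IFIT1. Among the SLFN11 partners and the chromatin and ETS genes it was 0.000126 for DTL, 0.00073 for CDT1, 0.00469 for RPA3, 0.0451 for CHEK1, 0.00108 for UHRF1 and 0.0424 for FLI1. It was 0.00527 for TXNIP, 0.0446 for S1PR1, 0.0451 for TOB1, 0.00117 for RNASEH2A, 0.0131 for CD28 and 0.0484 for ALAS2, which was dim in 6 of 8 groups. TRIM22 and IFIT1 were dim in both groups of CUTL1, and RSAD2 was just below the dim level there with PD-0332991. Over all 13483 genes, 12.6% passed this F test.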

How the results depend on the processing

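Under other scalings, filters, choices of probe set, block or variance, 4577 to 6451 genes passed the test in the average effect, against 6288. The number of interferon-stimulated genes that rose was 21 of 38 tested without _x_at and _s_at probe sets, against 39 of 56. Without those probe sets 10575 genes were tested in all, against 13483, of which 26.7% rose. The share of the 10575 that rose is not given here, so these counts are not compared. The average SLFN5 change of 0.93 by 238430_x_at was 1.26 without _x_at and _s_at probe sets, where 226725_at stood for the gene. With the replicate block, which moved no count of calls by over 1.5 times, 6088 genes passed the test in the average effect, 3363 in CEM, 3303 in CUTL1, 3462 in DND41 and 3252 in Jurkat. Same-numbered arrays of the treatments deviated together at r of 0.076 in CEM, 0.195 in CUTL1, -0.108 in DND41 and 0.105 in Jurkat, so the numbers were not taken as pairs. With 1 array left out, a lone array being assumed to vary like the others, the called genes numbered 2370 to 4025 in CEM, 2447 to 3913 in CUTL1, 2146 to 4012 in DND41, 2150 to 3906 in Jurkat and 5770 to 6455 in the average effect. Counts moved by over 1.5 times without either DMSO or the first PD-0332991 array of CEM (2424, 2505, 2370), the first PD-0332991 array of CUTL1 (2447), either DMSO or the first PD-0332991 array of DND41 (2204, 2146, 2312), or either PD-0332991 array of Jurkat (2210, 2150). The average changes ran from 0.87 to 1.00 for SLFN5, from -0.61 to -0.53 for SLFN11 and from 0.64 to 0.76 for SLFN12, whose average of 0.70 includes 1.85 in CEM and the dim lines DND41 and Jurkat. The SLFN12 change in CUTL1 was -0.04 or 0.44 without one or the other DMSO array. The representative probe sets of SLFN5 and SLFN11 kept the sign of their change in each line under every alternative run, as did SLFN12 in CEM. Dim levels have no order.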
